A study of Mus musculus with 12 samples.

Results

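Myc-CaP cells given oxaliplatin with 2000 pg of interferon gamma (IFNγ) were compared with cells given oxaliplatin with 200 pg. At the higher amount, levels of 159 genes were higher and of 22 lower, out of 13177 tested. The rises were led by guanylate-binding proteins, immunity-related GTPases and the CXCR3 chemokines. Of 76 genes that had at least doubled at the lower amount, 63 rose again, some by less than 1.5-fold, and 7 were not called and had an upper 95% bound under 1.5-fold. The comparison rested on 4 of the 12 RNA-seq libraries of the series, chosen by their titles, which name 2 libraries with 200 pg IFNγ and 2 µM oxaliplatin (Combo200, replicates 2 and 3) and 2 libraries with 2000 pg IFNγ and 2 µM oxaliplatin (Combo2000, replicates 2 and 3). All 4 were collected at 48 h, and all 4 carried oxaliplatin (Oxali), a platinum compound that forms adducts on DNA, so the step between them changed the amount of IFNγ only. The labels give the amounts of IFNγ without a volume, and the study's figure legend for its RNA-seq of Myc-CaP cells gives the same amounts per mL.

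Myc-CaP is a single mouse prostate cancer line from a male FVB/NJ animal whose prostate epithelium expressed a MYC transgene from an androgen-driven probasin promoter. The other groups, of 2 libraries each, were untreated cells (Ctrl), cells with 200 pg or 2000 pg IFNγ alone (IFN200, IFN2000) and cells with Oxali alone at 2 µM, and all were taken at 48 h. Titles and agent labels named different treatments for the IFN200, IFN2000 and Oxali libraries, and the titles were used. The conflict did not touch the Combo or Ctrl libraries, but it bears on every value below that uses Oxali or IFNγ alone. The measured levels ran as the titles name the Oxali and IFN2000 libraries. Nfkb2, an NF-κB subunit gene, stood at 183 and 184 CPM in the libraries titled Oxali and at 192 to 210 CPM in the 4 Combo libraries, against 44.0 to 49.3 CPM in the other 6. The IFNγ-responsive Iigp1 stood at 5.18 and 5.27 CPM in the libraries titled IFN2000, against 0.0921 and 0.143 CPM in those titled Oxali and 0 and 0.101 CPM in Ctrl. In the libraries titled IFN200, Iigp1 was close to Ctrl, at 0.217 and 0.177 CPM from 5 and 4 reads. Psmb9 stood there at 2.56 and 2.83 CPM, against 0.389 and 0.203 CPM in Ctrl and 3.04 and 3.44 CPM in Oxali. Each library held 18749975 to 25931516 counts, nothing in the labels said that partners were separate cultures, and p-values therefore measured the spread between these libraries, which may be technical. The 4 Combo libraries had summed prostate epithelial markers of 3459 to 3682 CPM (counts scaled to library size) over 8 genes, although Epcam was at 0 in all of them. Their summed T cell markers stood at 2.04 to 2.44 CPM (8 genes; Cd3d and Cd8a at 0 in both groups) and their macrophage markers at 1.89 to 2.18 CPM (8 genes; Adgre1, Itgam and Itgax at 0 in both groups). Fibroblast markers (8 genes; Col1a2, Lum and Fap at 0 in both groups) summed to 37.2 to 39.0 CPM in Combo200 and 32.8 to 35.0 CPM in Combo2000. Pdgfra, at 20.8 to 24.4 CPM, and Pdgfrb, at 11.9 to 14.4 CPM, made up most of these sums. Heart muscle markers (8 genes) summed to 3.71 to 4.54 and 3.06 to 4.0 CPM, mostly from Tnnt2 at 2.93 to 4.14 CPM. The part of these markers in the results was not tested. In bulk RNA, a change in the number of responding cells and a change per cell cannot be told apart.

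IFNγ binds a receptor of the chains IFNGR1 and IFNGR2, whose kinases JAK1 and JAK2 activate transcription factors of the STAT family. STAT dimers bind gamma-activated sites (GAS) in promoters, and the factors they induce, IRF1 and IRF8 among them, act at interferon-stimulated response elements (ISRE) of a second wave of genes. In epithelial tumour cells the pathway is best known for raising MHC class I antigen presentation, chemokines that attract T cells, and the checkpoint ligand PD-L1.

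Promoter windows of the genes on which the comparison turned are shown to place these elements. They cover 250 bases before to 50 bases after the start in RefSeq (GRCm38.p6), with capitals for GAS (letters TTCNNNGAA, its own reverse complement), ISRE (letters GAAANNGAAA, either strand) and the NF-κB consensus (either strand). Irf8 and Tap1 were marker genes of the comparison, Gbp5 and Cxcl10 were the leading rises, and 9930111J21Rik1 and 9930111J21Rik2 were the first genes of the plateau class with an entry.
Irf8 (chr8:120736108-120736407, plus strand): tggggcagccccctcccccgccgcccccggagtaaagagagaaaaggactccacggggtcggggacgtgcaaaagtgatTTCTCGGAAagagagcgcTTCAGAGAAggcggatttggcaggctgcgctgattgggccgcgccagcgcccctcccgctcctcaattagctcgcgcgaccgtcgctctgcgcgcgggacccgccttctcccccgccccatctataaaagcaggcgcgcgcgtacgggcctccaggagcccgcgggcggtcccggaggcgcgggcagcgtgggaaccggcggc
Tap1 (chr17:34187306-34187605, plus strand): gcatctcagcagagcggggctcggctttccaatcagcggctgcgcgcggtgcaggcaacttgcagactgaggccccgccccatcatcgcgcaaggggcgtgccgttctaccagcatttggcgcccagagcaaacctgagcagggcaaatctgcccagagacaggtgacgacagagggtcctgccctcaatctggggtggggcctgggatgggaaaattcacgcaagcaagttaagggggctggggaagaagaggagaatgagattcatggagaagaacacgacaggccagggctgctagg
Gbp5 (chr3:142496684-142496983, plus strand): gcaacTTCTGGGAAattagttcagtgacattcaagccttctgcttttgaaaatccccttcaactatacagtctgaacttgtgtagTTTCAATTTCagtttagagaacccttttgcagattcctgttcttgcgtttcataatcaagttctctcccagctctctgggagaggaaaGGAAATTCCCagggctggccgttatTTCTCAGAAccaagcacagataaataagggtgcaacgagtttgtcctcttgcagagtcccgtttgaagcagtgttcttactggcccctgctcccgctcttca
Cxcl10 (chr5:92348840-92349139, minus strand): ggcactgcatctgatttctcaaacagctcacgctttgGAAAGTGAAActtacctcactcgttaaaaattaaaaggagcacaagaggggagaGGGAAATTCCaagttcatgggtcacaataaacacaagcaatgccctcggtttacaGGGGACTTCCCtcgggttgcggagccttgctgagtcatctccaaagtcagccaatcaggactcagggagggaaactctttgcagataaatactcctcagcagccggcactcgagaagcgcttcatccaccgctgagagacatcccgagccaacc
9930111J21Rik1 (chr11:48979332-48979631, minus strand): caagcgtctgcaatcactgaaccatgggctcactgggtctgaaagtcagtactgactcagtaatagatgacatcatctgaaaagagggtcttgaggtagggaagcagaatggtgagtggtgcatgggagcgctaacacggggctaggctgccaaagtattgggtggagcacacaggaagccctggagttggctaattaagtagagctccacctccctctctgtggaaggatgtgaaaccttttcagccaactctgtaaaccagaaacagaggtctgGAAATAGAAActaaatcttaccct
9930111J21Rik2 (chr11:49051193-49051492, minus strand): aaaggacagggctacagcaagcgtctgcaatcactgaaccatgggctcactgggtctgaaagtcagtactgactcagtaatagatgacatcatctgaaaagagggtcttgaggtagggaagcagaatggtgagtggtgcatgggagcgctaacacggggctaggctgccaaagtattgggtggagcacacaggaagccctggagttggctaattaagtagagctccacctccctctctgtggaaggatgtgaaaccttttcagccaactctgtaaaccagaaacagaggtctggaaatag
The Irf8 window, the first of the entries for that gene, held 2 GAS matches, at -171 to -163 and -153 to -145 from the start. Gbp5 held GAS matches at -245 to -237 and -52 to -44, an ISRE match on the opposite strand at -165 to -156 and an NF-κB match at -77 to -68. Cxcl10 held an ISRE match at -213 to -204 and NF-κB matches at -159 to -150 and at -104 to -94, where matches shifted by 1 base overlapped. No letters of these motifs were found in the Tap1 window. The windows of 9930111J21Rik1 and 9930111J21Rik2 shared 283 bases at an offset of 17 bases, and the ISRE letters at 27 to 36 after the start of 9930111J21Rik1 lay only in part inside the other window. Reads of 2 genes with so similar a sequence may have been split between them.

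Across the 32851 windows of the reference, 8.30% held GAS and 3.44% ISRE. Across the 12272 windows of the genes tested the shares were 6.98% and 2.98%. Of the 159 rising genes, 113 had an entry, and of their 142 windows 28 (19.7%) held GAS and 41 (28.9%) ISRE. Of the 22 falling genes, 19 had an entry, and of their 24 windows 4 (16.7%) held GAS and 0 ISRE. Among the 63 genes that doubled at 200 pg and rose again, 42 had an entry, and 15 of 51 windows held GAS (29.4%) and 21 held ISRE (41.2%). Among the 7 plateau genes, 4 windows were found, with 0 GAS and 1 ISRE match. These shares describe letters in a window of one length and were not tested.

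**Figure D1:**
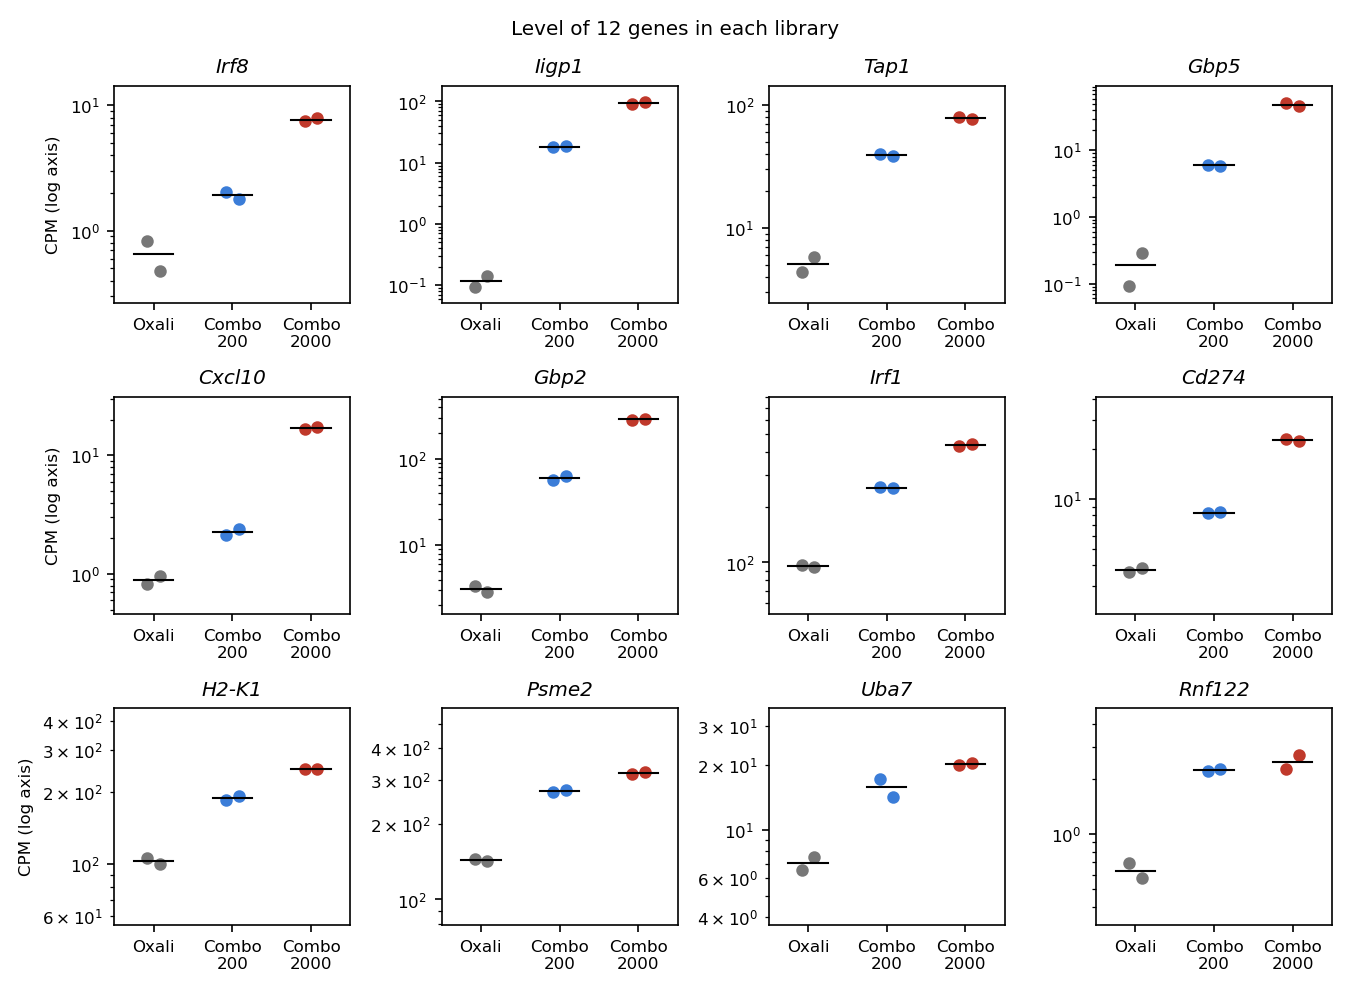
CPM on a log axis (vertical; the range differs between panels) for 12 genes in each library of Oxali, Combo200 and Combo2000 (horizontal); points are single libraries and black bars are means of 2 libraries. Irf8, Iigp1, Gbp5 and Cxcl10 rise by more than 4-fold from Combo200 to Combo2000, H2-K1 and Psme2 rise by less than 1.5-fold, and the Rnf122 libraries of both doses overlap.

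The marker genes of the comparison rose by unequal amounts. Irf8, a transcription factor of the interferon response, stood at 2.05 and 1.78 CPM in the Combo200 libraries and at 7.48 and 7.93 CPM in the Combo2000 libraries. Its log2 fold change was 2.01 ± 0.20 (SE, n = 2 libraries per group, edgeR adjusted p = 8.61e-07). Iigp1, a GTPase that attacks the vacuoles of intracellular parasites, went from 18.1 and 18.6 CPM to 91.0 and 99.4 CPM, a log2 fold change of 2.37 ± 0.06 (adjusted p = 1.35e-15). Tap1, a subunit of the transporter that carries peptides to class I molecules, went from 39.6 and 38.5 CPM to 79.4 and 76.8 CPM, a log2 fold change of 1.00 ± 0.06 (adjusted p = 2.76e-10). For all 3 genes both libraries of the higher dose lay above both libraries of the lower dose. With 2 libraries against 2, an exact permutation test of a single value cannot go below p = 0.333, so the tests rest on the spread estimated over all genes and all 12 libraries.

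Over all genes, 1.21% were called higher in Combo2000 than in Combo200 and 0.167% lower (adjusted p under 0.05), and the median log2 change of the 13177 genes was -0.0018. Among the 159 rising genes the log2 change ran from 0.18 to 5.75, with a median of 0.65, and 59 genes at least doubled. None of the falling genes was halved. Without adjustment, p was under 0.05 for 692 higher and 529 lower genes. Leaving out 1 of the 4 libraries left 110 to 117 genes called in all, the fewest without Combo200 replicate 2, of which 105 were higher. The rising genes held 85 members of the interferon and other lists described here and 74 genes in no list. Of the 85, 61 kept their call under every alternative run. The 24 that lost it under at least 1 were mostly small folds or few reads, with no change of direction: Irf2, Usp18, H2-D1, H2-Q4, H2-T23, Psme1, Psme2, Erap1, H2-DMb2, Gbp6, Gbp11, Ifit3, Oas2, Oas3, Eif2ak2, Zbp1, Ifi35, Samd9l, Adar, Lgals9, Vcam1, Casp4, Bak1 and Csf1.

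**Figure D2:**
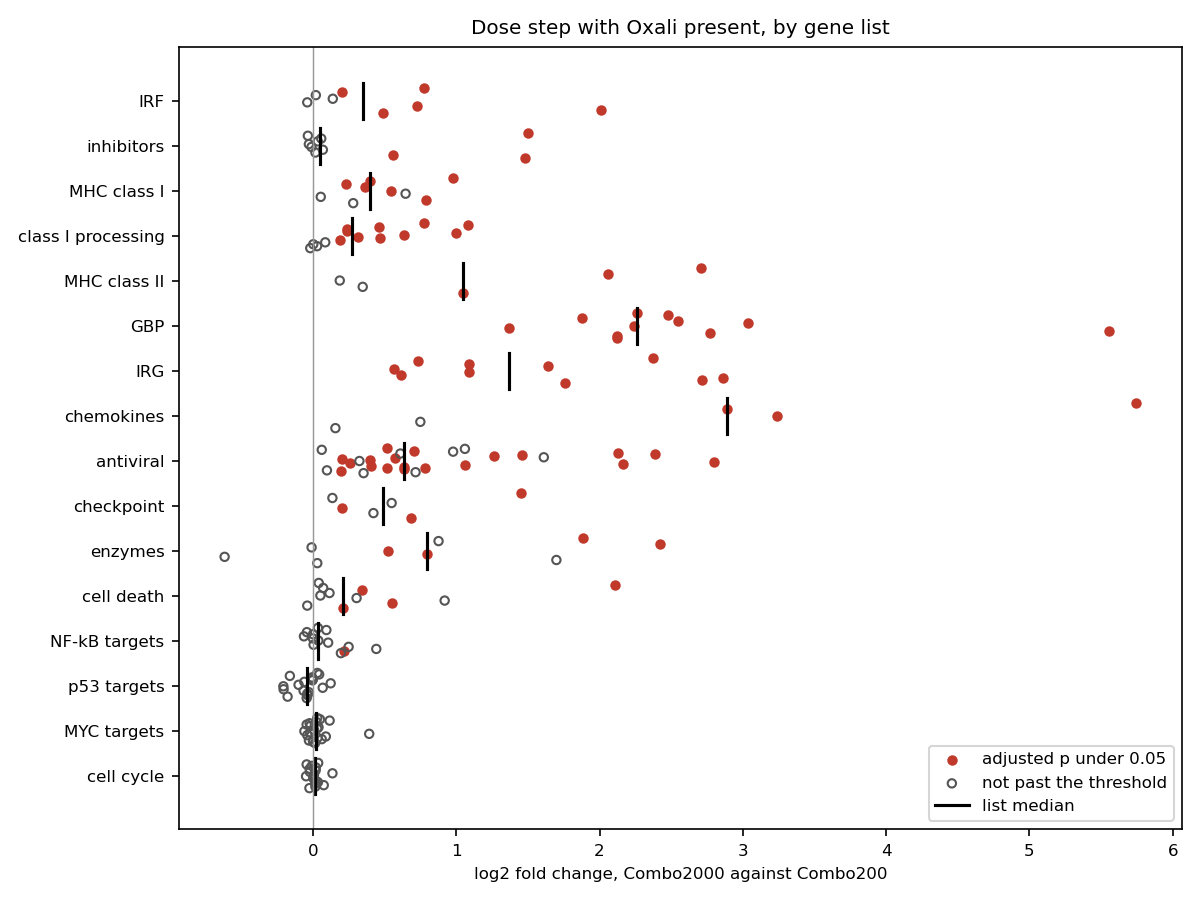
Log2 fold change of Combo2000 against Combo200 (horizontal) for each tested member of 16 gene lists (vertical); filled points passed adjusted p under 0.05, open points did not, and black bars are list medians. All 11 GBP and all 10 IRG genes are filled and lie above 0.5, whereas the p53, MYC and cell cycle lists lie around 0 with no filled point.

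The genes of the receptor and its kinases did not pass the test, while Stat2 and Stat3 rose. Ifngr1, which encodes the ligand-binding chain, measured 62.6 and 62.1 CPM in Combo200 and 61.2 and 62.0 CPM in Combo2000, with a 95% interval of the log2 change from -0.12 to 0.08. Jak1 and Jak2 had intervals of -0.03 to 0.14 and -0.11 to 0.04, and Ifngr2, at 4.44 to 5.56 CPM, had a wider interval of -0.14 to 0.50. Stat2, a partner in the type I interferon complex, went from 55.4 and 56.6 to 81.5 and 87.3 CPM (0.59 ± 0.05, adjusted p = 1.03e-07), and Stat3, the transducer of IL-6 signals, from 76.2 and 75.2 to 116 and 112 CPM (0.59 ± 0.04, adjusted p = 4.53e-09). For Stat2 and Stat3 both libraries of the higher dose lay above both of the lower.

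Among interferon regulatory factors, 5 of 8 tested genes rose (median log2 0.35). Irf1, a factor induced early in the response, measured 258 and 254 CPM in Combo200 and 432 and 445 CPM in Combo2000 (log2 0.78 ± 0.04, adjusted p = 5.2e-11). Irf9, the DNA-binding part of the type I complex, rose by 0.49 ± 0.06 (adjusted p = 7.52e-06), Irf7 by 0.72 ± 0.12 (adjusted p = 0.000732) and Irf2 by 0.21 ± 0.04 (adjusted p = 0.0105). Irf8 had the highest fold of the family. Irf3 (log2 0.02, interval -0.10 to 0.15) did not pass, Irf4 did not pass at about 3 CPM, and Irf5 was under the count filter.

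Inhibitors of the pathway rose in 3 of 10 cases (median log2 0.05). Socs1, which blocks JAK kinases, went from 4.45 and 3.90 CPM to 11.6 and 12 CPM (log2 1.5 ± 0.13, adjusted p = 1.04e-07). Il18bp, a secreted decoy for the cytokine IL-18, went from 3.71 and 4.33 CPM to 11.1 and 11.5 CPM (1.48 ± 0.14, adjusted p = 3.38e-07). Usp18, which removes ISG15 from proteins, rose by 0.56 ± 0.13 (adjusted p = 0.0364). The 7 others were Socs2, Socs3, Cish, the phosphatases Ptpn1, Ptpn2 and Ptpn6, and Pias1, with log2 changes of -0.04 to 0.07.

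Genes of class I antigen presentation rose by small folds. Of the class I list, 6 of 9 tested genes rose (median log2 0.40). H2-K1, a classical class I heavy chain, went from 186 and 193 CPM to 250 and 251 CPM (log2 0.40 ± 0.04, adjusted p = 3.72e-06), and H2-D1 rose by 0.23 ± 0.04 (adjusted p = 0.00201). B2m, the shared light chain, went from 1274 and 1311 CPM to 1622 and 1702 CPM (0.36 ± 0.04, adjusted p = 1.36e-06). Nlrc5, the transactivator of class I genes, showed the largest change of the list, from 9.73 and 7.77 CPM to 18 and 16.3 CPM (0.98 ± 0.12, adjusted p = 1.4e-05). H2-Q4 (0.55) and H2-T23 (0.79) also rose, whereas H2-M3, H2-Q6 and H2-T22 did not pass. Class I heavy chains are near-identical in places, and their counts may share reads.

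In the machinery that makes and loads class I peptides, 10 of 14 genes rose (median log2 0.28). The immunoproteasome subunit Psmb9 went from 39.2 and 39.7 CPM to 84.4 and 82.8 CPM (log2 1.08 ± 0.05, adjusted p = 1.48e-11), Psmb8 rose by 0.78 ± 0.07 and Psmb10 by 0.46 ± 0.04. Tap2 rose by 0.64 ± 0.05, and the loading factors Tapbpl and Tapbp by 0.47 ± 0.05 and 0.31 ± 0.04. The smallest called changes belonged to the proteasome activators Psme1 and Psme2, both 0.24 ± 0.04, and to the trimming peptidase Erap1, which went from 226 and 222 CPM to 252 and 258 CPM (0.19 ± 0.04, adjusted p = 0.00367). The general chaperones of the endoplasmic reticulum Calr, Canx and Pdia3, and the trafficking gene Sec22b, had log2 changes between -0.02 and 0.09 and did not pass. Psmb9 and Tap1 lie head to head, and with the strand setting of the counting not stated, reads at their starts cannot be assigned with certainty.

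MHC class II genes were little detected. Of 10 genes on that list 5 passed the count filter, and 3 of those rose (median log2 1.05). Ciita, the master regulator of class II, went from 0.262 and 0.271 CPM to 1.78 and 1.77 CPM (log2 2.71 ± 0.37, adjusted p = 0.00011), and Cd74, the invariant chain, from 4.32 and 2.90 CPM to 14.7 and 15.2 CPM (2.06 ± 0.14, adjusted p = 4.73e-09). H2-DMb2 rose from 1.00 and 0.850 to 1.93 and 1.90 CPM (1.05 ± 0.25, adjusted p = 0.0364). The class II chains themselves, H2-Aa, H2-Ab1 and H2-Eb1, were below the filter.

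Every tested guanylate-binding protein rose (11 of 11, median log2 2.26). These large GTPases coat intracellular pathogens and help to release their contents. Gbp5, the largest rise by the naming rule, went from 6.06 and 5.87 CPM to 51.6 and 46 CPM (log2 3.03 ± 0.09, adjusted p = 6.43e-14). Gbp2 went from 57.4 and 63.2 CPM to 286 and 293 CPM (2.26 ± 0.05, adjusted p = 5.21e-17), and Gbp3 from 45.7 and 46.2 CPM to 168 and 170 CPM (1.88 ± 0.04, adjusted p = 5.21e-17). Gbp7 had the smallest change of the family, from 30.1 and 28.7 CPM to 76.2 and 75.1 CPM (1.37 ± 0.06, adjusted p = 5.57e-12). Gbp9 (2.77), Gbp4 (2.55), Gbp2b (2.47), Gbp6 (2.24), Gbp10 (2.12) and Gbp11 (2.12) lay between these values. Gbp8 had 1 read over both Combo200 libraries and 61 over both Combo2000 libraries, a ratio of 59.3 with an exact interval of 10.2 to 2380 that covers counting error only. The GBP genes are close paralogs, and the division of reads among them is uncertain.

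All 10 immunity-related GTPases rose as well (median log2 1.37), with changes of 0.56 to 2.86. Beside Iigp1, Gm12250 went from 2.53 and 2.24 CPM to 16.9 and 17.7 CPM (log2 2.86 ± 0.13, adjusted p = 1.04e-11), and Gm4951 from 0.785 and 0.889 CPM to 5.37 and 5.73 CPM (2.72 ± 0.22, adjusted p = 1.93e-07). Igtp went from 76.8 and 81.1 CPM to 247 and 246 CPM (1.64 ± 0.05, adjusted p = 4.29e-15). The regulatory members Irgm2 and Irgm1 rose by 1.09 ± 0.05 and 0.73 ± 0.04. The smallest changes were those of Ifi47, from 16.1 and 16.5 CPM to 23 and 27.1 CPM (0.61 ± 0.09, adjusted p = 0.000406), and of Tgtp1 (0.56 ± 0.06), whose reads may be shared with its copy Tgtp2 (1.09 ± 0.09). F830016B08Rik rose by 1.76 ± 0.23.

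The chemokines that bind CXCR3 on T cells had few reads at the lower dose. Cxcl10 went from 2.14 and 2.40 CPM to 16.6 and 17.2 CPM (log2 2.89 ± 0.13, adjusted p = 1.04e-11), and Cxcl11 from 0.349 and 0.812 CPM to 5.41 and 5.91 CPM (3.24 ± 0.26, adjusted p = 1.77e-07). Cxcl9 had 3 reads over both Combo200 libraries and 180 over both Combo2000 libraries, a ratio of 58.3 with an exact counting interval of 19.6 to 286. All 3 genes rose, out of 5 tested on the list (median log2 2.89). Ccl5 (0.436 and 0.618 against 0.741 and 1.08 CPM) and Cx3cl1 (log2 0.16) did not pass, and Ccl2, Ccl7 and Cxcl16 were under the filter.

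Genes with antiviral functions rose in 19 of 28 tested cases (median log2 0.64). The largest folds came from genes with few reads at the lower dose: Zbp1, a sensor of Z-form nucleic acids, rose by 2.80 ± 0.40, the oligoadenylate synthetases Oas2 and Oas1a by 2.39 ± 0.33 and 2.13 ± 0.29, and Rtp4 by 2.17 ± 0.17, all from under 3 CPM in Combo200. Oasl2 went from 11.0 and 11.2 CPM to 27.5 and 25.8 CPM (1.27 ± 0.10, adjusted p = 3.84e-08) and Xaf1, an antagonist of an inhibitor of apoptosis, from 9.81 and 9.51 CPM to 19.9 and 20.4 CPM (1.06 ± 0.09, adjusted p = 1.93e-07). Parp14, Parp9 and Dtx3l rose by 0.78 ± 0.05, 0.64 ± 0.04 and 0.52 ± 0.05, Bst2 (tetherin) by 0.57 ± 0.04, Isg15 by 0.52 ± 0.08 and Ddx58, which encodes the RNA sensor RIG-I, by 0.40 ± 0.05. Ifit2 measured 55.8 and 58.0 CPM in Combo200 and 60.8 and 57.9 CPM in Combo2000, and these libraries overlapped (interval -0.04 to 0.16). Mx1 and Mx2, which encode the GTPases best known from type I interferon responses, were under the filter.

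Of the checkpoint and adhesion list, 3 of 6 tested genes rose (median log2 0.49). Cd274, which encodes PD-L1, went from 8.20 and 8.35 CPM to 23 and 22.3 CPM (log2 1.45 ± 0.11, adjusted p = 1.24e-08). Vcam1, an adhesion receptor, rose by 0.69 ± 0.14 (adjusted p = 0.0117) and Lgals9, a galectin, by 0.20 ± 0.05 (adjusted p = 0.0364). Icam1 (0.42, adjusted p = 0.189), Tnfrsf14 and Icosl did not pass. Pdcd1lg2, which encodes PD-L2, and the costimulatory genes Cd80, Cd86 and Cd40 were under the filter.

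Among the enzymes, 4 of 9 rose (median log2 0.79). Ido1, which breaks down tryptophan, went from 5.84 and 5.95 CPM to 21.6 and 22.1 CPM (log2 1.88 ± 0.09, adjusted p = 1.39e-11). Wars, the tryptophanyl-tRNA synthetase, rose by 0.52 ± 0.04 from 147 and 149 CPM, Xdh by 0.79 ± 0.10, and Nos2 from 0.349 and 0.348 CPM to 1.89 and 1.90 CPM (2.42 ± 0.32, adjusted p = 0.000112). Genes of cell death rose in 4 of 11 cases (median log2 0.21): Tnfsf10, the death ligand TRAIL, by 0.55 ± 0.06, Mlkl, the pore former of necroptosis, by 0.34 ± 0.05, Bak1 by 0.21 ± 0.05, and Casp4 by 2.11 ± 0.51 from under 0.2 CPM. Fas just missed the threshold (0.92 ± 0.23, adjusted p = 0.0568). Casp8, Ripk1, Ripk3 and Tnfrsf10b had log2 changes of -0.04 to 0.12 and did not pass.

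Lists outside the interferon pathway stayed near the median of all genes. Of 13 tested NF-κB genes 1 rose (median log2 0.04), and this was Csf1, a macrophage growth factor, from 136 and 132 CPM to 155 and 157 CPM (log2 0.22 ± 0.04, adjusted p = 0.00435). Of 18 p53 targets 0 rose and 0 fell (median -0.04). Neither did any of 20 MYC targets (median 0.02) or 18 cell cycle genes (median 0.01) pass in either direction. The largest log2 change was 0.39 on the MYC list, -0.21 on the p53 list and 0.14 on the cell cycle list.

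The 22 falling genes changed by 1.13-fold to 1.56-fold, and 20 of them by less than 1.3-fold. Leaving out 1 library left 2 to 5 falls, the fewest without Combo2000 replicate 3. Mgp, a matrix protein that inhibits calcification, fell most, from 16.1 and 13.5 CPM to 10.0 and 8.84 CPM (log2 -0.64 ± 0.10, adjusted p = 0.00097). S100a4, a calcium-binding protein, went from 19.3 and 22.6 CPM to 15.1 and 15.8 CPM (-0.44 ± 0.09, adjusted p = 0.0113). Wipi1 and Pink1, which act in autophagy and in the removal of damaged mitochondria, went from 46.9 and 46.7 to 37.6 and 37.0 CPM (-0.33 ± 0.05, adjusted p = 0.000226) and from 19.5 and 20.6 to 16.2 and 16.6 CPM (-0.29 ± 0.07, adjusted p = 0.04). Ulbp1, a ligand of the natural killer receptor NKG2D, went from 35.2 and 34.2 to 29.6 and 28.6 CPM (-0.25 ± 0.06, adjusted p = 0.0207). Klhl24 (-0.36), S100a7a (-0.25), Rpl39 (-0.24), Ccni (-0.23) and Pskh1 (-0.22) completed the 10 named by size. Of these 10 genes, only Wipi1 kept its call under every alternative run. Mgp lost it without Combo200 replicate 2 (-0.51, adjusted p = 0.0601) or Combo2000 replicate 3 (-0.56, adjusted p = 0.051), S100a4 and Rpl39 without any of 3 libraries (all but Combo200 replicate 2), Klhl24 without any of 3 (all but Combo2000 replicate 2) and the other 5 genes without any of the 4.

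The question of rise or plateau needed the step before, from Oxali alone to Combo200, which shares the Combo200 libraries with the dose step, so that a high Combo200 library raises one and lowers the other. In that first step 208 genes (1.58%) were called higher, and 76 of them at least doubled. At the second step 63 of the 76 rose again, with a median log2 change of 1.36 and a range of 0.31 to 3.60. The estimate was under 1.5-fold for 6 of the 63, Tapbp and Irf9 among them, and the lower 95% bound was above 1.5-fold for 50. A gene was placed on the plateau when it was not called and the upper 95% bound of its second step lay under 1.5-fold. This held for 7 genes, and 6 were not settled because their interval was wider. The plateau label limits the size of a rise and does not mean that a rise was absent. Tapbp, with more reads, was called at a log2 change of 0.31, while the plateau gene Uba7 was not called at 0.35.

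Most of the 7 plateau genes had few reads, and several have close copies. Rnf122, a ubiquitin ligase gene, measured 0.691 and 0.573 CPM in Oxali, 2.22 and 2.28 CPM in Combo200 and 2.26 and 2.72 CPM in Combo2000, where the libraries of the doses overlapped (log2 0.14, upper bound 1.47-fold). 9930111J21Rik1 measured 2.44 and 2.59 CPM against 2.41 and 2.41 CPM (log2 -0.06, upper bound 1.31-fold), and 9930111J21Rik2 6.24 and 6.11 CPM against 7.22 and 7.89 CPM (0.29, upper bound 1.46-fold). For 9930111J21Rik2 both libraries of the higher dose lay above both of the lower. The interval of its log2 change ran from 0.04 to 0.54, so a small rise was not excluded. The class I gene H2-Q1 stood at 2.05 and 2.05 CPM against 2.45 and 1.81 CPM, Psme2b, a copy of Psme2, at 2.31 and 3.63 against 3.19 and 3.45 CPM, and the phospholipase gene Pla1a at 2.7 and 2.47 against 2.85 and 3.02 CPM. Uba7, which activates ISG15 for attachment to proteins, had the most reads of the 7, at 17.2 and 14.3 CPM against 19.9 and 20.3 CPM. For Uba7, too, both libraries of the higher dose lay above both of the lower, with an interval of 0.17 to 0.54. Its log2 change of 0.35 ± 0.09 missed the threshold (adjusted p = 0.0556) and passed it without Combo200 replicate 2 (0.49, adjusted p = 0.0211). The class was not firm: with a limit at a rise of 25% it held 0 genes, with DESeq2 0, and with any 1 of the 6 libraries left out 1 or 2. The class of genes that rose again held 47 to 71 genes over the alternatives run.

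Genes were also chosen in libraries that the dose step did not use, as those at least 2-fold higher in IFN2000 than in Ctrl. Of these 88 genes, 47 rose from Combo200 to Combo2000, 11 met the plateau limit and 30 were not settled. Several of those that were not called are known from leukocytes, such as Trac, Coro1a and Lag3, and summed T cell markers in the IFN2000 libraries ran from 1.03 to 6.04 CPM against 0.353 to 0.781 CPM in IFN200. The part of these markers in the choice was not tested. Of the 55 that averaged 1 log2 CPM or more over the 4 Combo libraries, a limit added after the data were seen, 46 rose, 4 met the plateau limit and 5 were not settled. Without IFN2000 replicate 3 the plateau count of the whole choice was 36, and without any other library 2 to 5.

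**Figure D3:**
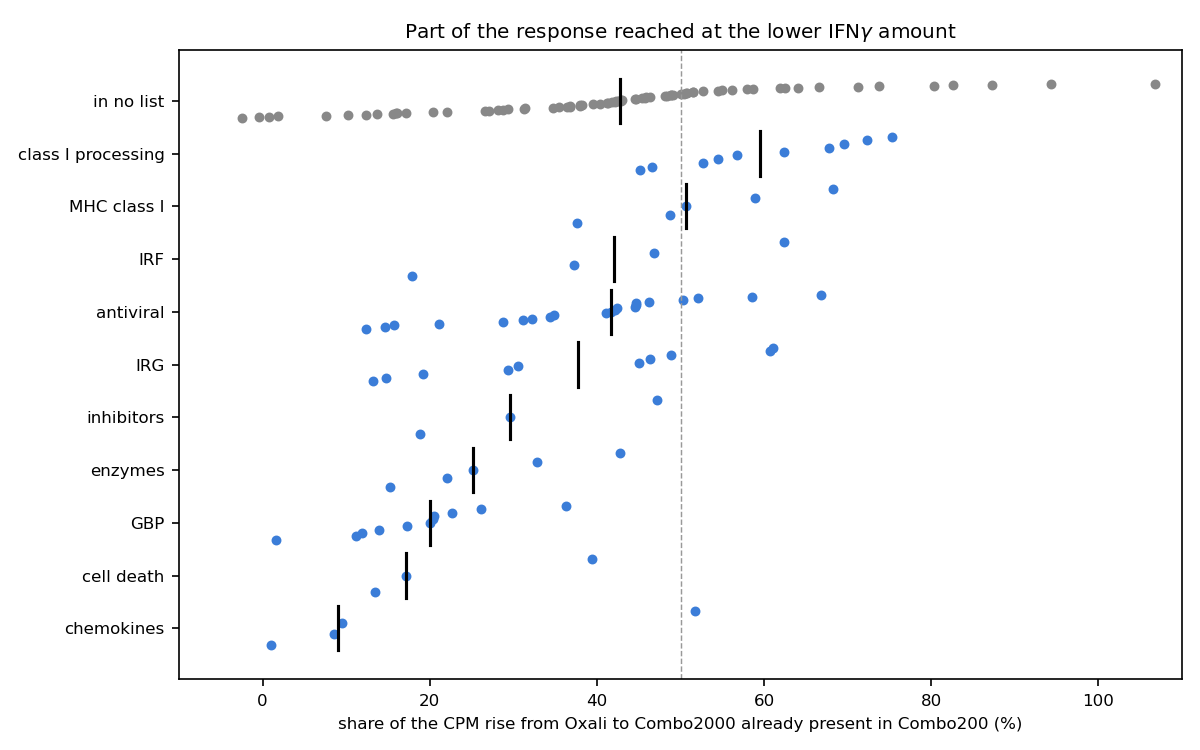
Share of the CPM rise from Oxali to Combo2000 that was already present in Combo200 (horizontal, percent) for 156 genes at least 2-fold higher in Combo2000 than in Oxali; each point is a gene, rows are lists with 3 or more such genes and the genes in no list, black bars are medians and the dashed line marks 50%. Chemokines, cell death genes and GBPs lie at the low end, with medians of 9.05%, 17.1% and 19.98%, and class I processing genes at the high end, with a median of 59.6%.

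The level already reached at 200 pg was expressed as a share of the CPM rise from Oxali to Combo2000, over the 156 genes called at least 2-fold higher across that whole range. This share describes means of 2 libraries and was not tested. The choice of genes and the share used the same Oxali and Combo2000 libraries. A Combo2000 level that is high through library spread therefore favours entry and lowers the share, which bears on the counts and medians below. The median share was 41.5%, with 112 genes under 50%, 42 under 25% and 5 over 80%. By list, the median was 9.05% for 4 chemokines, 17.1% for 3 cell death genes, 19.98% for 11 GBPs, 25.1% for 5 enzymes, 29.6% for 3 inhibitors, 37.8% for 10 IRGs, 41.7% for 21 antiviral genes, 41.99% for 4 IRFs, 50.7% for 5 class I genes and 59.6% for 10 class I processing genes. The 74 genes in no list had a median of 42.7%.

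Within these lists the order was wide. Cxcl10 had reached 8.60% of its rise, with a span of 7.64% to 9.60% over the pairings of single Combo libraries, Gbp5 11.9%, Irf8 17.9% (15.5% to 20.5%), Socs1 18.8%, Iigp1 19.2% (18.2% to 20.3%) and Cd274 24.0% (23.2% to 24.8%). Near the middle, Psmb9 had reached 45.1%, Tap1 46.5% (45.0% to 48.1%), Irf1 46.8% and Nlrc5 50.7%. Higher shares were those of H2-K1 at 58.9%, Tapbp at 67.8%, Psme2 at 72.3% (70.0% to 74.8%) and Erap1 at 75.3% (72.2% to 78.5%). The low-count genes Psme2b and H2-Q1 stood higher still, at 82.6% (46.2% to 124%) and 94.3% (76.6% to 123%). The spans of neighbours such as Irf8, Socs1 and Iigp1, or Tap1 and Irf1, overlapped, while those of Cxcl10, Iigp1, Tap1 and Psme2 did not.

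The log2 change of the second step was also tested against that of the first. It was smaller in 40 genes (0.304%) and larger in 6 (0.0455%). The 40 held genes of the interferon lists such as Irgm2 (second step 1.09, first 3.76, adjusted p of the difference 5.57e-12), Psmb9 (1.08 and 3.61, adjusted p = 1.68e-10), Gbp3 (1.88 and 4.21, adjusted p = 1.68e-10), Tap1 (1.00 and 2.93, adjusted p = 1.63e-08) and Erap1 (0.19 and 0.81, adjusted p = 3.51e-06). The first step began without added IFNγ and the second multiplied the amount by 10, so their log2 sizes are not per unit of dose. The 6 genes in the other direction were Malat1, Spaca6, Gm49759, Leng8, Zc3h7a and Srrt, of which Malat1, a nuclear noncoding RNA, measured 193 and 192 CPM in Oxali, 121 and 88.9 CPM in Combo200 and 149 and 128 CPM in Combo2000. None of these 6 belonged to an interferon list.

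**Figure D4:**
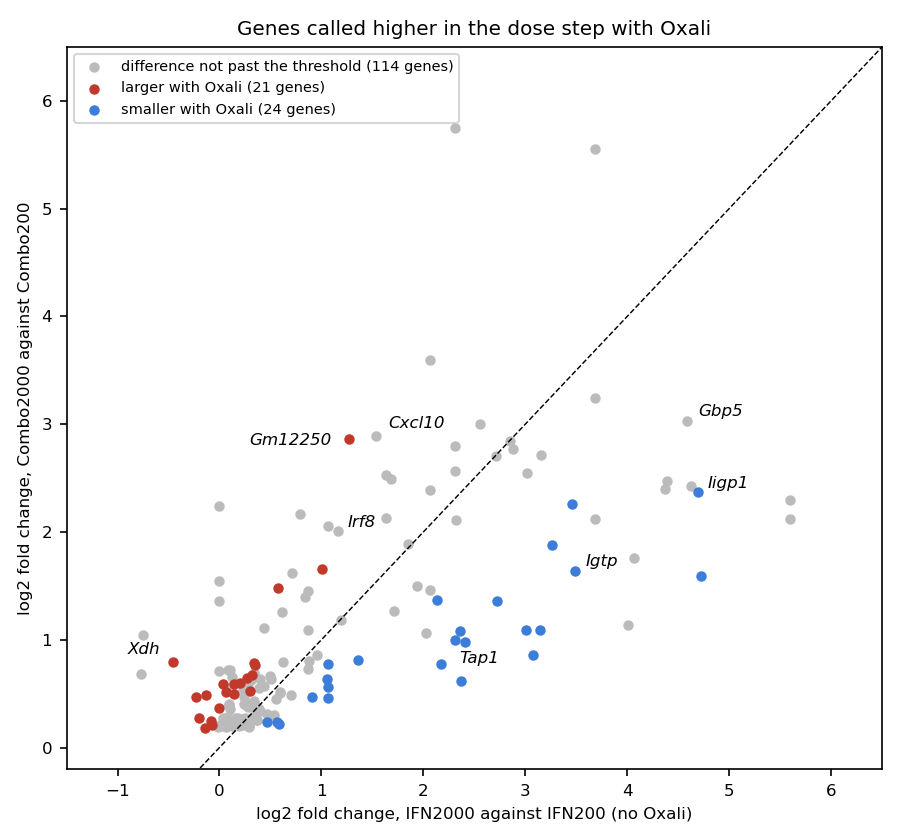
Log2 fold change of Combo2000 against Combo200 (vertical) against that of IFN2000 against IFN200 (horizontal) for the 159 genes called higher in the dose step with Oxali; the dashed line marks equal changes. Colours give the test of the difference: 24 genes rose less with Oxali, 21 rose more and 114 did not pass.

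The same dose step without Oxali, IFN2000 against IFN200, used 4 other libraries, and its titles are those that conflict with the agent labels. There, 1493 genes (11.3%) were called higher and 1450 lower, and 92 of the 159 rising genes were among the higher. The higher calls took in 13 of 20 MYC targets and 14 of 18 cell cycle genes, with 1 of each list lower. Neither list had a call in the dose step with Oxali. The median log2 changes were small, at 0.159 (MYC) and 0.160 (cell cycle) without Oxali and 0.02 and 0.01 with it. A direct test of the difference between the steps called 3 of the 20 MYC targets lower with Oxali. Among the 18 cell cycle genes it called 5 lower and 1 higher. The median log2 change of the 159 was 0.65 with Oxali and 0.46 without. Across these genes, which are not independent replicates and were selected on one of the axes, Pearson's r of the changes was 0.69 and Spearman's rho 0.73, against 0.25 and 0.10 over all genes tested. Log2 changes in the IFN2000 libraries followed transcript length (rho of -0.39 and -0.26 against the IFN200 mean) more than those of Combo2000 did (0.10 and -0.13), and the part of this in the counts was not tested.

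The difference of the steps was tested in one model. It was positive in 448 genes (3.40%) and negative in 420 (3.19%), and among the 159 rising genes in 21 and 24. These totals depended on single libraries, from 110 without IFN200 replicate 1 to 1929 without IFN2000 replicate 3. Summed heart muscle markers (8 genes) ran from 1.15 to 7.81 CPM in IFN200, with 63 reads of Actc1 and 28 of Myh6 in replicate 1 against 0 in replicate 2, and the higher T cell sum of IFN2000 was that of replicate 2, with 33 reads of Cd4 and 13 of Cd3d against 0 in replicate 3. The part of these markers in the differences was not tested. Among genes that averaged 1 log2 CPM or more over the 12 libraries, the IRG genes Iigp1, Irgm2, Igtp and Ifi47 had the largest called negative differences. Genes with fewer reads went further, to -3.17 for Gm9824, and the IRG gene Gm12250 had a positive difference of 1.59. Iigp1 measured 0.217 and 0.177 CPM in IFN200 and 5.18 and 5.27 CPM in IFN2000, a log2 step of 4.69 against 2.37 with Oxali (difference -2.32, adjusted p = 0.0011). Igtp measured 5.43 and 3.76 CPM in IFN200 and 51.3 and 52.4 CPM in IFN2000, a step of 3.49 against 1.64 (difference -1.85, adjusted p = 4.45e-09). Tap1 measured 2.65 and 3.14 CPM and then 14.8 and 13.9 CPM, a step of 2.31 against 1.00 (difference -1.31, adjusted p = 2.82e-05).

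For each of Iigp1, Igtp and Tap1 the level with 200 pg and Oxali was above that with 2000 pg alone. The Combo200 libraries of Tap1, for example, stood at 39.6 and 38.5 CPM, and the smaller fold with Oxali started from that higher level. Irf8 measured 0.651 and 0.574 CPM in IFN200 and 1.84 and 0.893 CPM in IFN2000, a step of 1.16 whose difference from 2.01 was not called. Stat2 and B2m moved the other way. Stat2 measured 24.1 and 26.8 CPM in IFN200 and 24.9 and 27.4 CPM in IFN2000, a step of 0.04 against 0.59 with Oxali (difference 0.55, adjusted p = 0.0009). B2m had a step of 0.36 with Oxali and of -0.00 without (difference 0.37, adjusted p = 0.000492).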

How the data were processed

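Poly(A) RNA of Myc-CaP cells was sequenced from stranded libraries. Per the study's methods the authors aligned reads with STAR to GRCm38 and counted them per gene with featureCounts; the submitters' processing notes name STAR 2.7.3a and RSEM 1.3.0 instead. The deposited values were whole-number counts per gene and library, with no normalization, and the strand setting is not given in the sources used here. Groups were taken from titles. Of 55216 genes, 28300 had no count, and 13177 passed filterByExpr in edgeR 4.0.16 (minimum count 10, total 15; R 4.3.3). Counts were scaled by TMM, and a quasi-likelihood model with 1 mean per group was fitted to all 12 libraries, with Benjamini-Hochberg adjustment over all genes tested and a threshold of 0.05. Each standard error was obtained as the absolute log2 change over the root of the F statistic. CPM used TMM-scaled library sizes, and 3 counts corresponded to 0.111 to 0.167 CPM. Intervals at 95% cover the libraries' spread, and those of single ratios counting error only.

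Plateau genes were at least 2-fold higher in the first step, not called in the second, with an upper bound under 1.5-fold. The share reached was the CPM difference of Combo200 and Oxali over that of Combo2000 and Oxali. Members, gene lists, the naming rule and the alternatives were chosen with earlier results of these data known. By that rule the text named the marker genes, list members, the 10 largest rises and falls and the plateau genes that averaged 1 log2 CPM or more over the 4 Combo libraries, and the 5 largest differences each way that did so over 12 libraries. Partner libraries differed by more than sampling noise (chi-square per degree of freedom 1.65 in Combo200 and 3.26 in Combo2000). No pairing of the Combo libraries by the shared replicate numbers 2 and 3 was seen over all genes (correlation of deviations 0.0040). This single value from 2 libraries per group cannot exclude a pairing. Alternatives were other scalings, filters, DESeq2 1.42.0, a replicate block, fewer libraries and each library left out. The scripts were tested on simulated data. A first version of that test exceeded its own limit on false calls, and the limit finally used was set after several setups had been tried. Some single genes of the lists are not reported here. Promoter sequences came from RefSeq (GRCm38.p6).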

Additional observations from a re-analysis of the deposited data

Results flagged for a closer look

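The dose step with Oxali was compared with the dose step without it by a test of the difference in one edgeR model, and the genes named below passed at an adjusted p under 0.05. Values are the log2 step with Oxali minus the log2 step without. For a gene that rose in both steps, a negative value is a smaller rise with Oxali. Only 2 libraries stood in each group, the titles of the libraries without Oxali conflict with their agent labels, and the cause of no difference was tested.

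Among the IRG and GBP genes the difference was -2.32 for Iigp1, -2.05 for Tgtp2, -1.91 for Irgm2, -1.85 for Igtp, -1.76 for Ifi47, -0.51 for Tgtp1, -1.38 for Gbp3, -1.20 for Gbp2 and -0.77 for Gbp7. Gm12250 alone among the called members of these lists had a positive difference, of 1.59. In IFN200 Iigp1 rested on 5 and 4 reads and Tgtp2 on 13 and 9.

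Among class I genes and their processing the difference was -1.43 for Nlrc5, -1.39 for Psmb8, -1.31 for Tap1, -1.28 for Psmb9, -0.60 for Psmb10, -0.44 for Tapbpl, -0.42 for Tap2, -0.32 for Psme2 and -0.23 for Psme1, whereas B2m stood at 0.37. Among signalling genes and factors it was -0.29 for Irf1, 0.55 for Stat2 and 0.40 for Stat3.

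Positive differences in other interferon lists were 0.91 for Il18bp, 0.45 for Dtx3l, 0.44 for Parp14, 0.36 for Ifit2, 0.28 for Eif2ak2, 0.22 for Wars and 1.248 for Xdh, whose log2 step without Oxali was -0.45. Outside the lists, among genes that averaged 1 log2 CPM or more over the 12 libraries, the largest positive differences were 1.13 for Klhl24, 1.07 for Gm19221, 1.07 for Mxd4 and 1.05 for Tcp11l2. For Klhl24, Mxd4 and Tcp11l2 both steps were negative, and the positive difference is a smaller fall with Oxali. Their log2 steps with and without Oxali were -0.36 and -1.48, -0.22 and -1.29, and -0.25 and -1.30. Klhl24 measured 25.3 and 23.2 CPM in IFN200 and 8.61 and 8.70 CPM in IFN2000, and Mxd4 37.5 and 31.9 CPM and then 13.5 and 15 CPM. The log2 steps with and without Oxali were 0.64 and -0.43 for Gm19221 and -0.56 and 1.01 for Gm7862. Gm7862 had a difference of -1.58, and its call and that of Gm19221 were lost without IFN200 replicate 1.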

How the results depend on the processing

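The dose step called 181 genes, and of these 180 were shared under upper-quartile and median-of-ratios scaling, 140 of 141 with a mean count of at least 50, 126 of 129 in DESeq2 and 149 of 150 with the replicate number as a block. Another scaling moved the share of higher calls by less than 10 percentage points and the median of all genes by less than 0.1. Without any low-count filter 269 genes were called, under 1.5 times the main count. Leaving out 1 library gave 110 to 117. The first step called 372 genes without the filter, 142 with the replicate block and 123 to 198 with 1 library left out. Second minus first step called 136 without the filter, 28 with the replicate block and 23 to 48 with 1 library left out. The difference of the steps with and without Oxali called 1320 without the filter, 564 in DESeq2, 236 with the replicate block and 110 to 1929 with 1 library left out. The plateau class held 2 genes with a mean count of at least 50, 0 in DESeq2, 4 with the replicate block, 0 at a limit of a 25% rise and 1 to 2 with 1 library left out. Among genes chosen in other libraries the plateau held 40 without the filter, 2 with a mean count of at least 50, 1 in DESeq2, 4 with the replicate block, 4 at a 25% rise, 19 at a 2-fold rise, 4 among genes averaging 1 log2 CPM or more (added after the data were seen) and 2 to 36 with 1 library left out. The median share reached was 39.0% to 40.5% with 1 library left out. H2-Q1 ran from -0.18, without Combo2000 replicate 2, to 0.25, and Psme2b from -0.13, without Combo200 replicate 2, to 0.52. The cause of these shifts was not tested, apart from the fewer libraries in the fit. The Combo libraries share only replicate numbers, and among the genes named the block ended calls of the dose step for Pink1, Pskh1 and S100a7a and for the list members Usp18, H2-DMb2, Ifit3, Adar, Lgals9, Casp4 and Bak1, and calls of the difference for Gm19221 and Gm7862. With 2 libraries a group, lone libraries were assumed to vary like the others, and genes under about 1 CPM gave wide intervals.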

Other observations

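Members of several gene families that were not lists of their own rose with the dose, and these families were chosen after their values were seen. Of 6 tested apolipoprotein L genes, 5 rose (median log2 1.03), and Apol6, one of the 10 largest rises, went from 2.7 and 3.59 CPM in Combo200 to 23.1 and 22.7 CPM in Combo2000 (log2 2.85 ± 0.12, adjusted p = 2.99e-12). Apol9a and Apol9b, copies that may share reads, rose by 1.59 and 1.36, and Apol8 did not pass. Of 7 tested complement genes, the 4 that rose encode C4 or the serine proteases of component C1. C1s1 went from 3.31 and 2.51 CPM to 16.8 and 16.6 CPM (2.53 ± 0.14, adjusted p = 1.44e-10), C4b rose by 3.00, C1s2 by 2.40 and C1ra by 1.253, and C2, C3 and C4a did not pass.

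Ubd, a ubiquitin-like modifier that directs proteins to the proteasome, went from 0.960 and 1.2 CPM to 5.82 and 6.42 CPM (log2 2.49 ± 0.22, adjusted p = 3.98e-07). Mpeg1, a pore-forming protein best known from macrophages, stood at 2.49 and 2.48 CPM in Oxali, 14.3 and 19.2 CPM in Combo200 and 51.9 and 54.4 CPM in Combo2000, while the summed macrophage markers (8 genes) stood at 1.89 to 2.18 CPM in Combo200 and 1.93 to 1.94 CPM in Combo2000. Of these, Adgre1, Itgam and Itgax were at 0 in the Combo libraries, Csf1r had 8 to 19 reads, Cd68 24 to 32 and Lyz2 4 to 11, and their part in the Mpeg1 level was not tested. Ifi204, a DNA sensor of the Ifi200 family, stood at 1.93 and 2.48 CPM in Oxali and at 1.92 and 2.47 CPM in Combo200, where the libraries overlapped, and at 4.30 and 5.30 CPM in Combo2000 (log2 1.11, adjusted p = 0.00233). Of 5 tested genes of that family 3 rose, and Ifi207 and Mndal did not pass. Of 12 tested genes of the PARP family 5 rose, Parp14, Parp11, Parp9, Parp10 and Parp3 (median of the 12, log2 0.09). Parp14 and Parp9 also belong to the antiviral list and were counted there.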
